A study of Mus musculus with 9 samples.

Results

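Amino acid transporter genes were described across 3 groups of cells of the mouse pancreatic cancer line 170#3. The members were the genes whose symbol on the array platform names the solute carrier families SLC1, SLC3, SLC6, SLC7, SLC36, SLC38 or SLC43. Slc7a11, which encodes the cystine carrier, was left out by that rule. The rule used no measured value to pick a member, but it was set with earlier results of these data known. The rule found 62 of the 18193 genes on the array with a single-gene probe set. Of these, 54 passed the filter on low values, which asked for log2 5 or more on 3 or more arrays, against 15235 of all genes. The families also hold carriers of other solutes, such as the monoamine carriers Slc6a2, Slc6a3 and Slc6a4, the taurine carrier Slc6a6 and the creatine carrier Slc6a8. The rule also caught 3 genes that are named after a neighbouring carrier and do not belong to these families, Slc7a6os, Slc6a19os and Slc36a1os.

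The cells, of a mixed C57BL6, FVB and 129Sv background, had been stably transfected with a control, with beta-catenin, the co-activator of Wnt target genes, or with ICAT, a small inhibitor that keeps beta-catenin from TCF factors. Every group had 3 arrays, 9 in all, from cells grown as monolayers in DMEM with serum. The labels call the replicates biological but do not say whether those of a group came from separate transfections or clones. Each p-value thus reflects just the spread among these 9 samples, which may not cover the spread between separately made lines. The labels do not name the control construct, and untransfected cells were not analysed here.

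Cells take up amino acids through carriers that differ in substrate and driving force. SLC1 and SLC38 proteins and many SLC6 proteins use the sodium gradient to move amino acids into the cell, whereas SLC36 proteins use protons and often sit on lysosomes. The SLC7 light chains are exchangers that must pair with an SLC3 heavy chain to reach the membrane, and they swap an intracellular amino acid such as glutamine for an extracellular one such as leucine. The cationic carriers of the SLC7 family work alone and supply arginine and lysine. Many of these genes are induced by the transcription factor ATF4 when amino acids are short, and lysosomal carriers report amino acids to the growth kinase complex mTORC1.

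Array medians lay between 6.21 and 6.29 on the log2 scale, and no pair of arrays was identical. Over the 54 tested members, the median replicate SD came to 0.0615 for control, 0.0859 for beta-catenin and 0.145 for ICAT arrays, so errors were largest in the ICAT group. With 3 arrays against 3, an exact permutation test cannot give a p under 0.1, and adjusted p-values are from limma, fitted over all 15235 genes and adjusted over all of them. A gene is said to have risen or fallen where its adjusted p was under 0.05. Values are log2 expression, folds come from differences of group means with n = 3 per group, and errors are SDs. Where 3 means of a gene are listed, they stand in the order control, beta-catenin and ICAT cells.

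In beta-catenin cells 14 of the 54 members rose and 4 fell relative to control cells (11 and 7 with each array centred on its median). The 18 called members are 33.3 percent of those tested, against a background of 34.9 percent of all tested genes (19.6 percent higher and 15.4 percent lower). In ICAT cells 5 members rose and 6 fell (3 and 9 with centred arrays), together 20.4 percent, against 37.2 percent of all tested genes (18.7 percent higher and 18.5 percent lower). Between beta-catenin and ICAT cells, 11 members were higher in beta-catenin cells and 5 lower, together 29.6 percent, against 40.4 percent (22.5 percent higher and 17.9 percent lower). Over members of any brightness, the share called was thus near the background in beta-catenin cells and under it in the other comparisons. Changes of at least 1.5-fold were called for 7 members in beta-catenin cells (13.0 percent, against 11.2 percent of all tested genes). They were called for 5 members in ICAT cells (9.26 percent, against 9.89 percent) and for 6 between the lines (11.1 percent, against 12.1 percent).

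The median log2 difference of the members was -0.04 in beta-catenin cells and 0.03 in ICAT cells, beside -0.03 and -0.01 over all tested genes. Groups of arrays did not overlap for 24 members in beta-catenin against control cells (44.4 percent, beside 54.1 percent of all tested genes). The same was seen for 15 members in ICAT against control (27.8 percent, beside 46.2 percent) and for 20 in beta-catenin against ICAT cells (37.0 percent, beside 47.6 percent). Many members were dim. Of the 54, 33 had a mean under log2 7 over the 9 arrays, and 6 of these were called in beta-catenin cells (18.2 percent, beside 15 percent of all tested genes that dim). Of the 21 brighter members 12 were called (57.1 percent, beside 46.8 percent of all tested genes that bright). In ICAT cells 7 of the brighter members were called (33.3 percent, beside 51.6 percent). Between beta-catenin and ICAT cells 12 of the brighter members were called (57.1 percent, beside 54.1 percent). Of the dimmer members 4 were called there (12.1 percent, beside 17.3 percent). The brighter members were thus not under the background in that comparison.

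**Figure D1:**
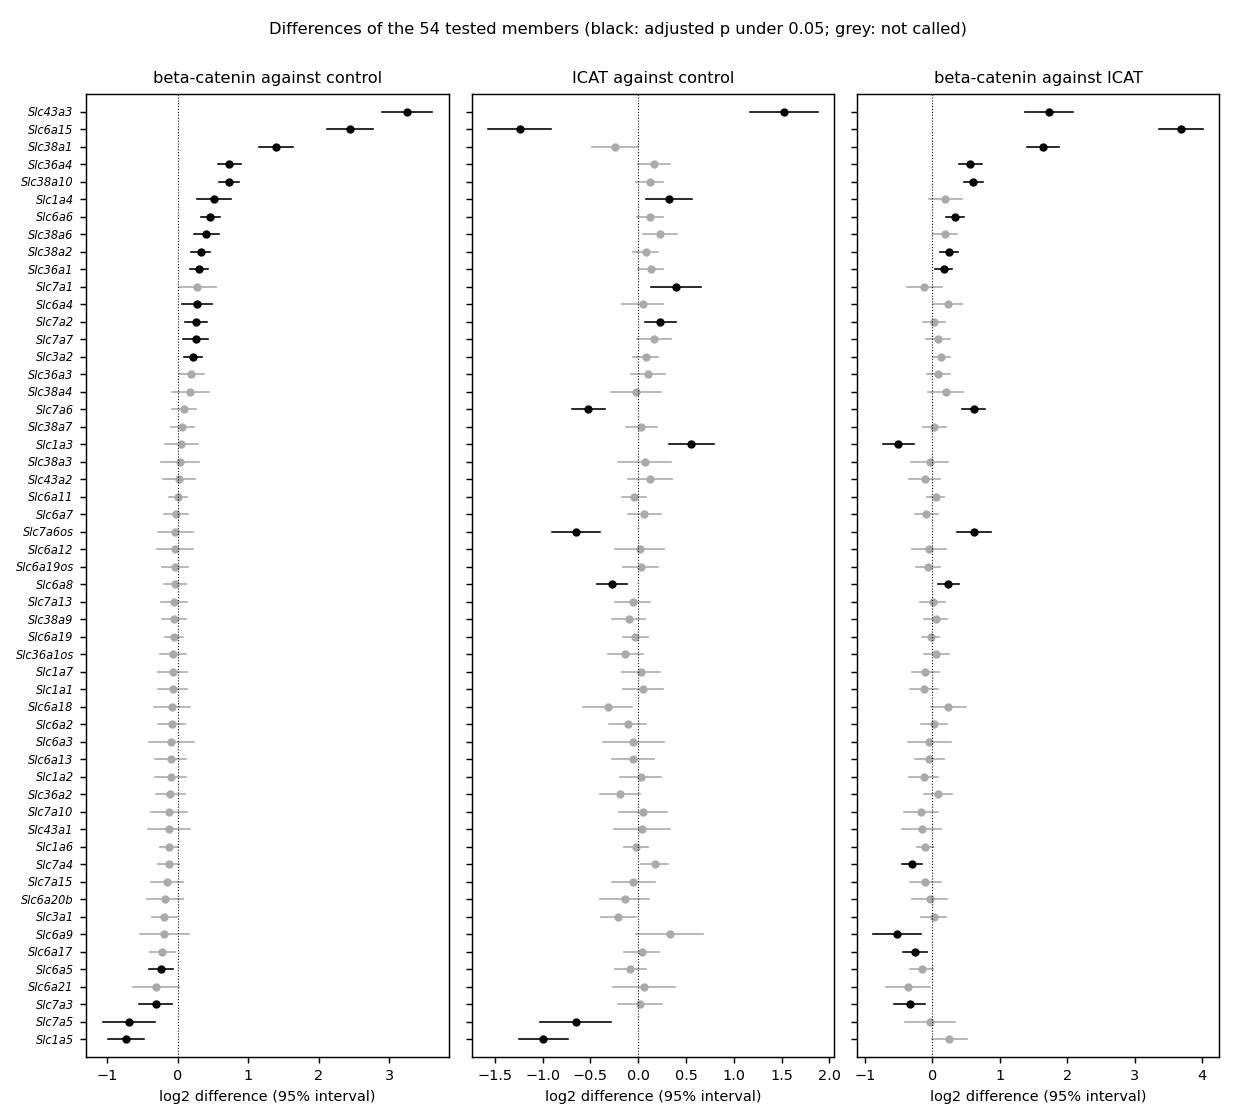
Log2 difference (horizontal axis) with its 95% interval for each of the 54 tested members (vertical axis, ordered by the first panel), with a panel for beta-catenin against control, a panel for ICAT against control and a panel for both lines against each other. Black points passed an adjusted p of 0.05, which 18, 11 and 16 members did. Slc43a3 and Slc6a15 lie farthest to the right in the first panel, and Slc6a15 lies to the left of 0 in the second.

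The comparisons with control share the control arrays, so each is given with its own values. Of the 8 tested sodium-coupled neutral amino acid carriers of the SLC38 family, 4 rose and none fell in beta-catenin cells by limma (none was lower at an unadjusted p under 0.05 either). These 50 percent stand beside 34.9 percent of all tested genes called, and the median log2 difference was 0.25 beside -0.03 over all tested genes. In ICAT cells none of the 8 was called by limma, beside 37.2 percent of all tested genes (2 at an unadjusted p under 0.05, Slc38a1 lower and Slc38a6 higher). Slc38a1, which imports glutamine and other small neutral amino acids, lay at 9.03, 9.15 and 9.12 on the control arrays, at 10.47, 10.53 and 10.47 on the beta-catenin arrays and at 8.65, 8.75 and 9.15 on the ICAT arrays. All 3 beta-catenin arrays stood above the other 6. ICAT replicates 1 and 2 lay below all control arrays, and ICAT replicate 3 lay among them. Slc38a1 rose with beta-catenin by 2.63-fold (1.39 on the log2 scale, 95% interval from 1.15 to 1.63, adjusted p = 1.83e-06). It did not pass in ICAT cells (-0.25, 95% interval from -0.49 to -0.01, adjusted p = 0.104). Its other probe set also rose in beta-catenin cells, by 0.78 (adjusted p = 9.63e-05 over all probe sets).

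Slc38a10, a member of the same family that is found inside cells, had values of 9.64, 9.65 and 9.66 in control, 10.39, 10.39 and 10.35 in beta-catenin and 9.73, 9.70 and 9.89 in ICAT cells. The beta-catenin arrays stood clear of all others, and the ICAT arrays lay just above the control arrays. It rose 1.66-fold with beta-catenin (adjusted p = 5.03e-06) and had a difference of 0.12 in ICAT cells (adjusted p = 0.186). Of its 6 other probe sets, 3 rose in beta-catenin cells, by 0.33, 0.64 and 0.66, and the 3 others had differences of at most 0.12 and did not pass.

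Slc38a2, the carrier that many cells induce when amino acids are scarce, gave 11.91, 12.004 and 11.95 in control, 12.31, 12.27 and 12.25 in beta-catenin and 12.06, 12.07 and 11.97 in ICAT cells. The beta-catenin arrays lay above all others, and ICAT arrays overlapped with control arrays. Its rise with beta-catenin was 1.25-fold (adjusted p = 0.0013), and it was not called in ICAT cells (log2 difference 0.08, adjusted p = 0.351). Slc38a6, a relative whose transport is little known, rose with beta-catenin by 1.32-fold (adjusted p = 0.0022) from a control mean of 8.41 to 8.81, and had a mean of 8.63 in ICAT cells (adjusted p = 0.0503). The other tested SLC38 genes were not called in any comparison. The means of Slc38a3, a glutamine carrier of liver and brain, were 7.14, 7.17 and 7.21. Those of Slc38a4 were 5.21, 5.39 and 5.19. Slc38a7, a lysosomal glutamine carrier, had means of 7.53, 7.60 and 7.57, and Slc38a9, the lysosomal arginine sensor of mTORC1, of 6.75, 6.70 and 6.65.

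Of the 4 tested proton-coupled carriers of the SLC36 family, 2 rose and none fell in beta-catenin cells by limma (none was lower at an unadjusted p under 0.05). These 50 percent of just 4 genes stand beside 34.9 percent of all tested genes called. Slc36a4, which carries proline and tryptophan, gave 8.17, 8.11 and 8.23 in control, 8.89, 8.88 and 8.94 in beta-catenin and 8.21, 8.31 and 8.49 in ICAT cells. The beta-catenin arrays did not overlap with either other group. It rose 1.66-fold (adjusted p = 1.76e-05) and was not called in ICAT cells (log2 difference 0.17, adjusted p = 0.113). Slc36a1, a lysosomal exporter of small amino acids, rose with beta-catenin by 1.23-fold (means 7.39, 7.69 and 7.52, adjusted p = 0.00203). Slc36a2 (means 6.16, 6.05 and 5.97) and Slc36a3 (means 6.79, 6.98 and 6.89) were not called in any comparison. Slc36a1, Slc36a1os, Slc36a2 and Slc36a3 lie next to each other on chromosome 11 in the RefSeq gene table, and Slc38a1, Slc38a2 and Slc38a4 on chromosome 15.

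The promoter windows of the members were read from RefSeq (assembly GRCm38.p6), from 250 bases before to 50 after each start site. A window was given for 45 of the 62 members, and for 10 of the 15 whose values are given array by array. Both strands were searched for CTTTGAT, a core of the TCF/LEF site through which beta-catenin acts, and for TGATGNAA, a core of the site bound by ATF4 and its partners. These motifs were chosen because the transfected proteins act on TCF factors and because ATF4 controls many carriers. CTTTGAT was present in a window of 5 of the 45 members (11.1 percent), beside 4.29 percent of all 27025 genes with windows. Some genes have several windows, and by window it was in 5 of 66, beside 3.73 percent of all windows. The 5 were Slc38a10, Slc7a1, Slc1a2, Slc38a9 and Slc6a16. Against control, just Slc38a10 was called in beta-catenin cells and just Slc7a1 in ICAT cells, and Slc6a16 was not tested. TGATGNAA was present in 3 of 45 members (6.67 percent), beside 4.51 percent, and in 4 of 66 windows, beside 3.97 percent. These members were Slc1a4, called higher in both lines, Slc7a7, called higher in beta-catenin cells, and Slc6a21, not called. A match describes these letters only and was not measured as binding. The windows of Slc38a10, Slc7a1 and Slc1a4 are shown because they are the matches among the members with values by array, printed on the strand of the gene from 110 bases before the start site up to it or to the end of the match, with the match in capitals. The Slc38a10 match begins 10 bases before the start site, the Slc7a1 match 48 bases before the start site of its window and the Slc1a4 match 4 bases before its start site. The last 2 read on the opposite strand.
Slc38a10, chr11:120151352-120151461, minus strand: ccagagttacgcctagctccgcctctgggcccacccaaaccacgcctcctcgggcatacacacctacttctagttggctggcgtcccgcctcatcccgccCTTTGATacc
Slc7a1, chr5:148392816-148392925, minus strand: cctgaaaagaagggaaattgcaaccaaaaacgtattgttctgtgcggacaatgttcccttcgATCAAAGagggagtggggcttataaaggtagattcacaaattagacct
Slc1a4, chr11:20332710-20332823, minus strand: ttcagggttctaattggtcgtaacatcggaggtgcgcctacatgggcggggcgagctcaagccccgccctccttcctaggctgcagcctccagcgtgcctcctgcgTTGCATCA
Slc38a1, Slc43a3, Slc6a15, Slc1a5 and Slc7a5 had no window in the table.

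Slc6a15 encodes a sodium-dependent carrier of branched-chain amino acids and proline that is best known from neurons. Its values were 6.40, 6.10 and 6.28 on the control arrays, 8.57, 8.77 and 8.76 on the beta-catenin arrays and 5.14, 4.62 and 5.30 on the ICAT arrays. The groups did not overlap, with beta-catenin cells highest and ICAT cells lowest. It rose 5.43-fold in beta-catenin cells, from 6.26 ± 0.150 (SD, n = 3) to 8.70 ± 0.110 (SD, n = 3) (adjusted p = 2.65e-07). In ICAT cells it fell at least 2.16-fold, to 5.02 ± 0.356 (SD, n = 3) (adjusted p = 7.41e-05). ICAT replicate 2 lay under log2 5, the limit chosen for low values, and the ICAT mean was just above it, so folds against ICAT cells are lower bounds with that array set to 5. Between the lines Slc6a15 was at least 11.8-fold higher in beta-catenin cells (adjusted p = 1.82e-08). It was the member with the largest difference between the lines. It has 1 probe set, so no other set could be compared.

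The other SLC6 genes changed less. Slc6a9, a glycine carrier, gave 8.67, 8.63 and 8.67 in control, 8.47, 8.59 and 8.33 in beta-catenin and 8.52, 9.18 and 9.26 in ICAT cells. ICAT replicate 1 lay among the beta-catenin values and the other ICAT arrays above all others. The gene was lower in beta-catenin than in ICAT cells by 1.44-fold (adjusted p = 0.0207), a call lost without beta-catenin replicate 3 (adjusted p = 0.0784), ICAT replicate 2 (0.0934) or ICAT replicate 3 (0.0778). Against control it passed in neither line (adjusted p = 0.395 and 0.135), although without ICAT replicate 1 the ICAT difference was 0.56 and passed (adjusted p = 0.000395). Slc6a6, the taurine carrier, rose with beta-catenin by 1.37-fold (means 11.60, 12.05 and 11.72, adjusted p = 0.000119), and a second bright probe set rose by 0.60 on the log2 scale. Slc6a8, the creatine carrier, fell 1.21-fold in ICAT cells (means 9.98, 9.94 and 9.70, adjusted p = 0.00868), but its other probe set did not pass (-0.11, adjusted p = 0.375 over all probe sets).

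The glycine carrier gene Slc6a5 fell 1.18-fold in beta-catenin cells (means 5.51, 5.27 and 5.43, adjusted p = 0.0268) and Slc6a4, the serotonin carrier gene, rose 1.21-fold (means 6.15, 6.43 and 6.20, adjusted p = 0.0468). The Slc6a5 call was lost when control replicate 1 or any beta-catenin array was removed (adjusted p from 0.0514 to 0.12) and as the mean of its probe sets (-0.15, adjusted p = 0.153). That of Slc6a4 did not survive the loss of control replicate 2 or 3, replicate 2 or 3 of beta-catenin, or ICAT replicate 2 (adjusted p from 0.062 to 0.198), nor did it pass with centred arrays (0.22, adjusted p = 0.128), without a filter (0.0529) or in the fit over all probe sets (0.0672). Slc6a17, a vesicular carrier of neutral amino acids, was 1.19-fold lower in beta-catenin than in ICAT cells (means 7.29, 7.07 and 7.32, adjusted p = 0.027). It no longer passed without replicate 1 or 3 of beta-catenin or replicate 1 or 2 of ICAT (adjusted p from 0.0575 to 0.108), as the mean of its probe sets (-0.14, adjusted p = 0.124), with centred arrays (0.0617) or with only the 6 arrays compared (0.062).

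The remaining SLC6 genes were not called in any comparison, and all but Slc6a2 had group means under log2 7, where a signal over background cannot be told without detection calls. Among carriers of amino acids, the proline carrier Slc6a7 had means of 6.53, 6.51 and 6.60. The kidney and gut carriers Slc6a18, Slc6a19 and Slc6a20b had means of 5.18, 5.09 and 4.86, of 6.71, 6.66 and 6.68 and of 5.79, 5.60 and 5.64, in the same order. The orphan Slc6a21 had means of 6.12, 5.81 and 6.18. Among carriers of GABA and betaine, Slc6a11 had means of 5.20, 5.20 and 5.15, Slc6a12 of 5.12, 5.08 and 5.13 and Slc6a13 of 5.96, 5.86 and 5.90. The noradrenaline carrier Slc6a2 had means of 7.65, 7.56 and 7.54 and the dopamine carrier Slc6a3 of 6.36, 6.26 and 6.31.

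Slc43a3 had the largest rise of all members in both lines. It belongs by sequence to the SLC43 family of large neutral amino acid carriers, but its product is known as a carrier of purine nucleobases. Its values were 5.69, 5.43 and 5.14 in control, 8.70, 8.54 and 8.78 in beta-catenin and 7.30, 6.82 and 6.70 in ICAT cells. The groups did not overlap, and ICAT arrays lay between the others. It rose 9.56-fold in beta-catenin cells, from 5.42 ± 0.278 (SD, n = 3) to 8.68 ± 0.124 (SD, n = 3) (adjusted p = 5.27e-08), and 2.87-fold in ICAT cells, to 6.94 ± 0.316 (SD, n = 3) (adjusted p = 3.16e-05). The difference between the lines was 3.33-fold (adjusted p = 8.92e-06). It has 1 probe set, which was dim in control cells. Slc43a1 (means 6.997, 6.87 and 7.03) and Slc43a2 (means 6.32, 6.33 and 6.44), which carry leucine and other large neutral amino acids, were not called.

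**Figure D2:**
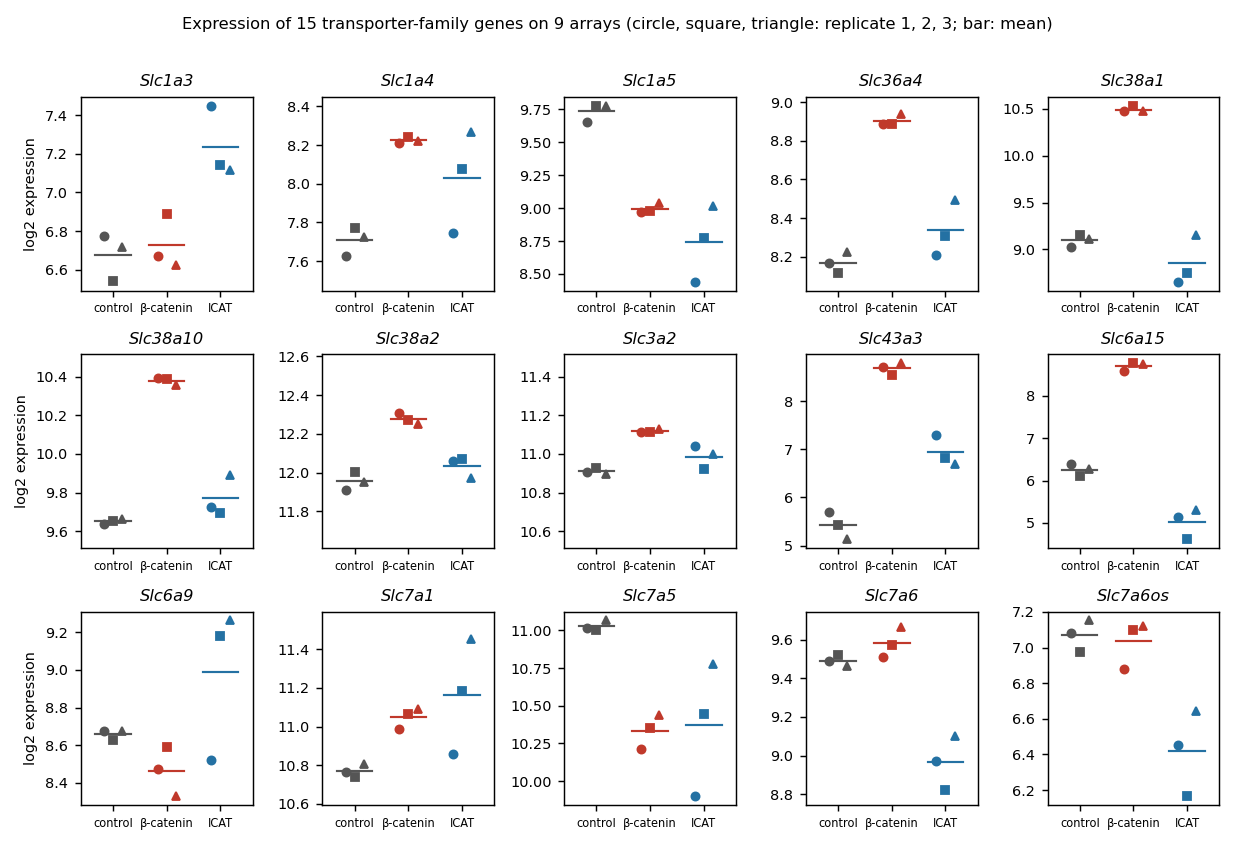
Log2 expression (vertical axis, a scale of its own in each panel) of 15 members on each of the 9 arrays, with bars at group means and circle, square and triangle for replicates 1, 2 and 3. For Slc38a1, Slc38a10 and Slc36a4 the beta-catenin arrays stand above all others, for Slc7a5 and Slc1a5 both transfected lines lie below control, and for Slc6a15 the lines lie on opposite sides of control.

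Among SLC1 genes, the glutamine carrier Slc1a5 fell in both lines. Its values were 9.66, 9.78 and 9.77 in control, 8.97, 8.98 and 9.04 in beta-catenin and 8.44, 8.77 and 9.02 in ICAT cells. All control arrays stood above all others, while ICAT replicate 3 overlapped with the beta-catenin arrays. It fell 1.67-fold with beta-catenin (adjusted p = 0.000456) and 1.99-fold with ICAT (adjusted p = 6.74e-05). The difference between the lines did not pass (0.25, 95% interval from -0.01 to 0.51, adjusted p = 0.113), but passed without ICAT replicate 3 (0.39, adjusted p = 0.00695), with array weights (0.28, adjusted p = 0.0288) and as a mean of its probe sets (0.28, adjusted p = 0.0399). Its dimmer probe set fell in ICAT cells (-0.46, adjusted p = 0.00361 over all probe sets) and did not pass in beta-catenin cells (-0.16, adjusted p = 0.306).

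Slc1a4, a carrier of alanine, serine and cysteine, gave 7.62, 7.77 and 7.73 in control, 8.21, 8.24 and 8.22 in beta-catenin and 7.75, 8.08 and 8.27 in ICAT cells. Beta-catenin arrays lay above control arrays, and ICAT replicate 1 lay among the control values. The gene rose 1.43-fold with beta-catenin (adjusted p = 0.00312) and 1.25-fold in ICAT cells (adjusted p = 0.0365). Its ICAT result no longer passed without any 1 of the 3 control arrays, replicate 2 or 3 of beta-catenin, or replicate 2 or 3 of ICAT (adjusted p from 0.0504 to 0.123). The same held for the mean of its probe sets (0.18, adjusted p = 0.194), centred arrays (0.0756), the 6 arrays compared (0.0701) and the fit over all probe sets (0.0506). Neither of its other probe sets passed in either line, with differences from 0.10 to 0.28.

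Slc1a3, a glutamate and aspartate carrier known from glia, rose in ICAT cells. The arrays gave 6.77, 6.54 and 6.72 in control, 6.67, 6.89 and 6.62 in beta-catenin and 7.44, 7.14 and 7.11 in ICAT cells, and the ICAT arrays stood above all others. The rise was 1.47-fold (adjusted p = 0.00155), and the gene was not called in beta-catenin cells (0.05, adjusted p = 0.757). The brightest probe set, used here, is of a type (_x_at) whose probes can match other transcripts. A second set above the filter had a larger difference in ICAT cells (1.45, adjusted p = 0.000107 over all probe sets), and 4 of the 5 sets other than the brightest, this one included, passed in that direction. The glutamate carriers Slc1a1 (means 5.84, 5.77 and 5.89), Slc1a2 (means 6.21, 6.11 and 6.24), Slc1a6 (means 5.33, 5.20 and 5.31) and Slc1a7 (means 6.70, 6.63 and 6.73) were not called in any comparison.

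**Figure D3:**
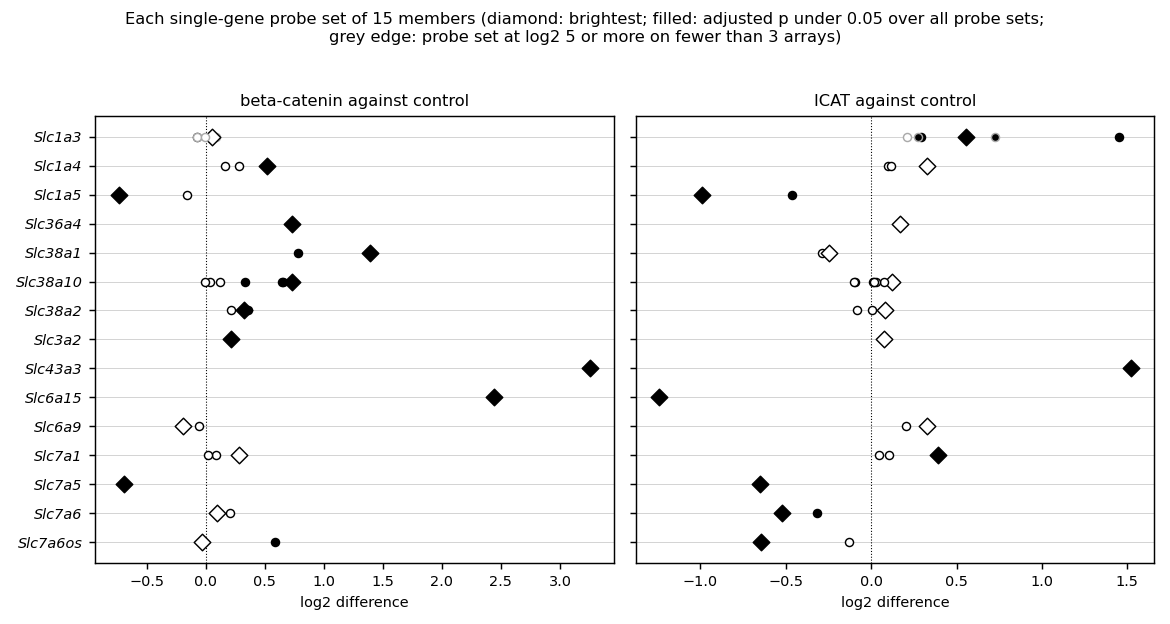
Log2 difference (horizontal axis) of every single-gene probe set of the 15 members (vertical axis) in beta-catenin and in ICAT against control cells. Diamonds are the brightest sets, filled symbols passed an adjusted p of 0.05 over all probe sets, and grey edges mark sets at log2 5 or more on fewer than 3 arrays. The sets of Slc38a1 agree in direction in both panels, and those of Slc7a6os lie on both sides of 0 in the first.

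The heavy chain and the light chain of the main leucine exchanger moved in different directions in beta-catenin cells. Slc3a2, which encodes the CD98 heavy chain, gave 10.91, 10.93 and 10.90 in control, 11.11, 11.11 and 11.13 in beta-catenin and 11.04, 10.92 and 10.998 in ICAT cells. It rose with beta-catenin by 1.16-fold (adjusted p = 0.0146), with no overlap, but not past the threshold without control replicate 1 or 3 (adjusted p = 0.0507 and 0.0604). It was not called in ICAT cells (0.08, 95% interval from -0.05 to 0.20, adjusted p = 0.359). Slc7a5, which encodes the light chain LAT1, an exchanger of leucine for glutamine, gave 11.02, 11.001 and 11.07 in control, 10.21, 10.35 and 10.44 in beta-catenin and 9.90, 10.44 and 10.78 in ICAT cells. All control arrays stood above all others, and the ICAT arrays spanned a wide range. Slc7a5 fell with beta-catenin by 1.62-fold (adjusted p = 0.00713) and 1.57-fold in ICAT cells (adjusted p = 0.00949). In ICAT cells its log2 difference was -0.42 without replicate 1 and -0.86 without replicate 3, and it passed in both cases. Each of the 2 genes has 1 probe set. Slc3a1, the heavy chain of the kidney cystine carrier, had means of 5.35, 5.16 and 5.14 and was not called.

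Slc7a6 encodes another light chain, which exchanges arginine for glutamine. Its arrays gave 9.49, 9.52 and 9.46 in control, 9.51, 9.57 and 9.67 in beta-catenin and 8.97, 8.82 and 9.10 in ICAT cells, and the ICAT arrays lay below all others. It fell 1.44-fold in ICAT cells (adjusted p = 0.000309), was not called in beta-catenin cells (0.09, adjusted p = 0.409) and was 1.53-fold higher in beta-catenin than in ICAT cells (adjusted p = 8.26e-05). Its other probe set fell in ICAT cells too (-0.31, adjusted p = 0.0155 over all probe sets). Slc7a6os, its neighbour on chromosome 8 and not a carrier, gave 7.08, 6.98 and 7.15 for control, 6.88, 7.10 and 7.12 for beta-catenin and 6.46, 6.16 and 6.65 for ICAT arrays, with the ICAT arrays below all others. It fell 1.57-fold in ICAT cells (adjusted p = 0.000952) and was not called in beta-catenin cells (-0.04, adjusted p = 0.842). Its probe sets disagreed. The other rose in beta-catenin cells (0.58, adjusted p = 0.000576 over all probe sets) and in ICAT cells did not pass (-0.13, adjusted p = 0.419). In the RefSeq table the intervals of Slc7a6 and Slc7a6os do not overlap.

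Slc7a7, a light chain for cationic amino acids, rose with beta-catenin by 1.19-fold (means 5.44, 5.69 and 5.60, adjusted p = 0.0288). It did not pass when control replicate 1 or 3 or replicate 1 or 2 of beta-catenin was absent (adjusted p from 0.056 to 0.129), as the mean of its probe sets (0.08, adjusted p = 0.463) or with centred arrays (0.19, adjusted p = 0.107). The light chains Slc7a10 (means 6.12, 5.99 and 6.17), Slc7a13 (means 6.46, 6.41 and 6.40) and Slc7a15 (means 5.30, 5.14 and 5.25) were dim and not called. Of the 6 light chain genes tested, 1 was higher and 1 lower with beta-catenin, and none was higher and 2 lower with ICAT by limma (none was higher at an unadjusted p under 0.05). The share called, 33.3 percent in each line, was near the 34.9 and 37.2 percent of all tested genes.

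Cationic amino acid carriers rose in 2 of 4 tested cases in ICAT cells and none fell by limma (none was lower at an unadjusted p under 0.05). These 50 percent of just 4 genes stand beside 37.2 percent of all tested genes called. Slc7a1, the main arginine and lysine carrier of dividing cells, gave 10.77, 10.74 and 10.81 in control, 10.99, 11.06 and 11.09 in beta-catenin and 10.86, 11.18 and 11.45 in ICAT cells. Both transfected lines lay above all control arrays, and ICAT arrays varied most. It rose 1.31-fold in ICAT cells (adjusted p = 0.0213), a call lost without control replicate 1 or 2 or ICAT replicate 2 (adjusted p from 0.0575 to 0.0665) and as the mean of its probe sets (0.18, adjusted p = 0.136). It did not pass in beta-catenin cells (0.28, 95% interval from 0.02 to 0.54, adjusted p = 0.0958). That p-value rests on a spread shared by all 9 arrays. The SD was 0.296 over the ICAT arrays, beside 0.0533 over the beta-catenin arrays and 0.0346 over the control arrays. The missing call thus does not show that beta-catenin left Slc7a1 unchanged. Neither of its other probe sets passed in ICAT cells (0.05 and 0.10).

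Slc7a2, an arginine carrier induced in inflammation, was near the limit of log2 5, with means of 4.89, 5.15 and 5.12. It rose at least 1.11-fold in beta-catenin and at least 1.08-fold in ICAT cells (adjusted p = 0.0161 and 0.0267), with each array under the limit of 5 set to 5. Another probe set of Slc7a2, dimmer in control cells, rose by 0.83 in beta-catenin cells (adjusted p = 0.000682 over all probe sets). The call of the set used was lost in beta-catenin cells without replicate 2 or 3 of control or replicate 1 or 2 of the line (adjusted p from 0.0526 to 0.0775) or with centred arrays (0.0634). In ICAT cells it was lost without control replicate 2 or 3 or ICAT replicate 1 (adjusted p from 0.0806 to 0.119), with centred arrays (0.117), with only the 6 arrays compared (0.0548) and with a robust trended eBayes (0.0518). Slc7a3 fell 1.24-fold in beta-catenin cells (means 6.17, 5.86 and 6.19, adjusted p = 0.036), a call lost without any 1 control array or beta-catenin replicate 2 or 3 (adjusted p from 0.0751 to 0.13) and in the fit over all probe sets (0.0501). Slc7a4, whose transport is not settled, was 1.23-fold lower in beta-catenin than in ICAT cells (means 8.17, 8.03 and 8.34, adjusted p = 0.00321) and passed in neither line against control. As the mean of its probe sets that difference was -0.12 and did not pass (adjusted p = 0.163).

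The other 8 members stayed under the filter and were not tested. Their values over the 9 arrays ranged from 4.16 to 4.48 for Slc38a5, from 4.46 to 4.90 for Slc6a14, from 4.57 to 4.97 for Slc6a16 and from 3.43 to 3.62 for Slc6a20a. They ranged from 3.49 to 3.94 for Slc7a12, from 4.16 to 4.41 for Slc7a14, from 4.10 to 4.40 for Slc7a8 and from 4.52 to 4.90 for Slc7a9. Slc6a14, Slc7a8 and Slc7a9 are carriers of epithelia, and Slc38a5 carries glutamine and histidine. Slc6a19os (means 5.02, 4.98 and 5.05) and Slc36a1os (means 5.57, 5.50 and 5.44) passed the filter and were not called. In the RefSeq table Slc6a19os overlaps Slc6a19, so the values of this pair are uncertain.

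In beta-catenin against ICAT cells, tested directly, all 6 members called with at least 1.5-fold were higher in beta-catenin cells. These were Slc6a15 (at least 11.8-fold), Slc43a3 (3.33-fold), Slc38a1 (3.12-fold), Slc7a6 (1.53-fold), Slc7a6os (1.53-fold) and Slc38a10 (1.52-fold). The 5 members called lower in beta-catenin than in ICAT cells were Slc1a3, Slc6a9, Slc7a3, Slc7a4 and Slc6a17, by 1.19-fold to 1.44-fold. Among these, Slc7a3 no longer passed without replicate 2 or 3 of either line (adjusted p from 0.0605 to 0.0996) or with only the 6 arrays compared (0.0543). Of the smaller differences, Slc36a1 (0.17, adjusted p = 0.0398) lost its call without any 1 array other than ICAT replicate 1 (adjusted p from 0.0568 to 0.113), and under other settings (0.0522 to 0.0995). Slc6a8 (0.24, adjusted p = 0.0178) lost it without beta-catenin replicate 2 (0.0611) or ICAT replicate 2 (0.0625), as the mean of its probe sets (0.13, adjusted p = 0.0769) and with only the 6 arrays compared (0.0513). Slc7a5, Slc1a5, Slc1a4 and Slc7a1 were not called between the lines, and the 95% interval for Slc7a5 ran from -0.41 to 0.33 on the log2 scale.

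Several carriers differed among the ICAT arrays themselves. A range of at least 0.5 on the log2 scale over the 3 ICAT arrays was seen for 12 of the 54 members (22.2 percent), beside 6.6 percent of all tested genes. Over the control arrays 1 member had such a range and over the beta-catenin arrays 3 had. Among the 12, Slc7a5, Slc1a5, Slc7a1, Slc1a4 and Slc6a9 were lowest in ICAT replicate 1 and highest in replicate 3, a pattern of that size in 2.47 percent of all tested genes. Slc38a1 had this order too, but its range of 0.499 just missed the limit. Slc43a3 and Slc6a18 showed the reverse. Of 16 tested factors and regulators of the amino acid response, 7 had the same pattern, namely Eif2ak3, Atf5, Ddit3, Trib3, Chac1, Nupr1 and Ddit4, and Cebpb had the reverse. Trib3, an ATF4 target, lay at 8.31, 9.89 and 10.23 on the ICAT arrays, and Chac1, which degrades glutathione, at 7.62, 8.71 and 9.01. The part of these differences between replicates in the ICAT results was not tested. Where leaving out an array lost a call, the value is given with the gene above. Calls gained in this way are given for Slc6a9 and Slc1a5 only.

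**Figure D4:**
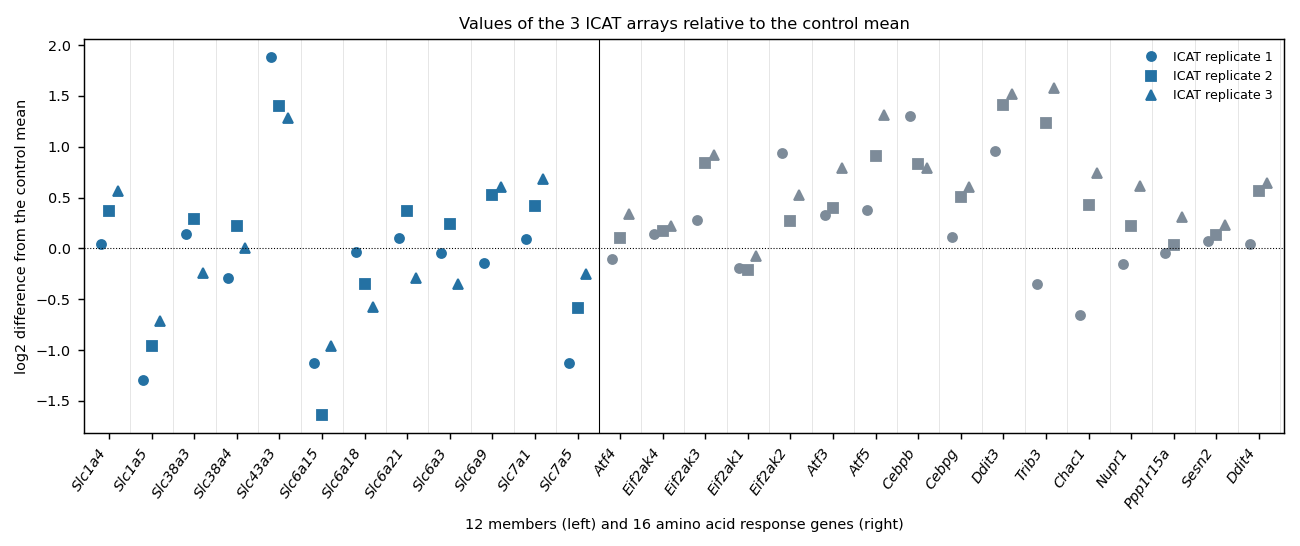
Log2 difference from the control mean (vertical axis) on each of the 3 ICAT arrays, for the 12 members with a range of at least 0.5 over these arrays and for the 16 tested amino acid response genes. ICAT replicate 1 (circle) is lowest and replicate 3 (triangle) highest for Slc7a5, Slc1a5, Slc7a1, Slc1a4, Slc6a9 and for genes such as Trib3 and Chac1.

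Other genes of amino acid supply and sensing were described by lists, whose shares called stand beside 34.9 percent of all tested genes in beta-catenin and 37.2 percent in ICAT cells. Of tested genes with a mean of log2 7 or more, 46.8 and 51.6 percent were called. The lists were not matched to a background of their own brightness. Of the 16 amino acid response genes 2 were higher and 3 lower with beta-catenin (median log2 difference -0.05), and 9 higher and none lower with ICAT by limma (31.2 and 56.2 percent called; median 0.41 in ICAT cells; none was lower at an unadjusted p under 0.05). Ddit4, an inhibitor of mTORC1, fell with beta-catenin by 2.11-fold (adjusted p = 5.06e-05) and rose 1.34-fold in ICAT cells (adjusted p = 0.0239). Atf4 itself fell with beta-catenin by 1.27-fold (adjusted p = 0.0144) and was not called in ICAT cells (adjusted p = 0.42). Atf4, Trib3 and Chac1 were named after their values were seen. Ddit3, a stress transcription factor, rose 2.46-fold in ICAT cells, Cebpb 1.97-fold, Atf5 1.82-fold and Eif2ak3 1.60-fold. In beta-catenin cells Cebpb rose 1.47-fold, the amino acid sensing kinase gene Eif2ak4 rose 1.41-fold, and Sesn2, a leucine sensor, fell 1.35-fold.

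Of 19 cytosolic aminoacyl-tRNA synthetase genes, which load tRNAs with amino acids, 9 fell and 1 rose in each line (52.6 percent called; median log2 differences -0.22 and -0.25). In beta-catenin cells Cars fell 1.52-fold, Nars 1.45-fold and Vars 1.43-fold, and Tars rose 1.51-fold. In ICAT cells Vars fell 1.58-fold, Hars 1.55-fold, Farsa 1.54-fold and Mars1 1.42-fold. The gene that rose there, named after its values were seen, was Sars (1.31-fold). Of 37 tested genes of amino acid sensing by mTORC1, 10 were higher and 7 lower with beta-catenin, and 9 higher and 6 lower with ICAT. These shares, 45.9 and 40.5 percent, were above those of all tested genes. They were under the 46.8 and 51.6 percent of tested genes with a mean of log2 7 or more. Sesn3, a sestrin, rose 1.65-fold in beta-catenin and 2.80-fold in ICAT cells. Bmt2, which encodes a sensor of S-adenosylmethionine, fell with beta-catenin by 1.76-fold (adjusted p = 1.66e-06) and had a log2 difference of 0.00 in ICAT cells (adjusted p = 0.975). Nprl3, a part of the complex that restrains mTORC1, fell 1.65-fold in ICAT cells.

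Enzymes of glutamine, glutamate and aspartate metabolism had 1 of 12 tested members higher and 4 lower in beta-catenin cells, and 2 higher and 5 lower in ICAT cells (41.7 and 58.3 percent called). Glud1, glutamate dehydrogenase, fell 1.48-fold and 1.35-fold, and the transaminase gene Got1 1.35-fold and 1.42-fold, in beta-catenin and ICAT cells. Gpt2, an alanine transaminase that varied among the ICAT arrays in the pattern above, rose 2.30-fold in ICAT cells (adjusted p = 0.00722). Asns, asparagine synthetase, fell with beta-catenin by 1.47-fold (adjusted p = 0.018) and was not called in ICAT cells (adjusted p = 0.725). Of 11 tested carriers of amino acids or peptides outside the 7 families, 6 fell and none rose in beta-catenin cells by limma (1 was higher at an unadjusted p under 0.05, the lysosomal cystine carrier Ctns), and 1 rose and 3 fell in ICAT cells (54.5 and 36.4 percent called). Slc25a13, the mitochondrial aspartate-glutamate carrier, fell 1.98-fold and 1.49-fold, and Slc16a10, a carrier of aromatic amino acids, fell 1.47-fold in beta-catenin cells. Slc7a11 was called against control in neither line (adjusted p = 0.228 and 0.456).

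The labelled cell type was checked against its markers. Of 10 ductal and epithelial genes on the array, Cdh1, Cftr and Krt7 stayed under the filter, while Sox9, Epcam, Krt18, Krt8 and others passed it. Epithelial genes were not called in beta-catenin cells (0 of 7 tested by limma, with 1 higher at an unadjusted p under 0.05, Muc1), beside 34.9 percent of all tested genes. In ICAT cells 4 of 7 rose (57.1 percent called, beside 37.2 percent of all tested genes). The mean of the 10 epithelial genes ranged from 5.96 to 6.01 over control, from 5.93 to 5.97 over beta-catenin and from 6.20 to 6.35 over ICAT arrays. With beta-catenin, 3 of 10 tested fibroblast markers rose and 3 fell, and with ICAT 7 rose and none fell by limma (none was lower at an unadjusted p under 0.05). These shares, 60 and 70 percent, stand beside 34.9 and 37.2 percent of all tested genes called. The mean of the 12 fibroblast genes on the array ranged from 8.10 to 8.15 over control, from 8.19 to 8.37 over beta-catenin and from 8.84 to 9.06 over ICAT arrays. A different share of cells of a type and a different amount of RNA per cell cannot be told apart in such bulk samples. Of the 11 immune and endothelial genes on the array, 5 stayed under the filter, among them Ptprc, Itgam and Cdh5, and 6 passed it. Among these 6, 1 fell with beta-catenin and none was called with ICAT by limma (16.7 and 0 percent called). The mean of the 11 genes ranged from 5.58 to 5.67 over control, from 5.45 to 5.52 over beta-catenin and from 5.51 to 5.65 over ICAT arrays. The part of the epithelial and fibroblast marker differences in the carrier results in ICAT cells was not tested.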

How the data were processed

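RNA of 9 samples was measured on Affymetrix 3-prime expression arrays. The values are log2 expression per probe set that the authors made by RMA, with affy, according to the deposited processing notes of the submitters. Tool versions were not stated in the sources used, and RMA values carry no read depth, so the number of arrays limits the precision. A probe set was used where the platform annotation gave it 1 gene (34945 of 45037; 932 had several and 9160 none), and a gene took its brightest probe set by the mean over the 9 arrays. Genes at log2 5 or more on at least 3 arrays were tested with limma 3.58.1 in R 4.3.3, with 1 mean per group over all 9 arrays, eBayes, and Benjamini-Hochberg adjustment over all tested genes. The fit was tested on simulated data, with 1 spread per gene for all groups. It recovered 24 percent of 1.2-fold changes for beta-catenin and 10 percent for ICAT against control, and 100 and 96 percent of 1.5-fold changes. Of its calls, 5.26 and 8.38 percent were false. Far fewer genes were changed in the simulation than were called in the data, and the real ICAT arrays spread more than the others. These rates thus need not hold for the comparisons given here. A small change that was not called may still have been missed.

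Every member that passed the filter was named with its values. Array values were given for members called in a comparison with a log2 difference of at least 0.5 there, and for Slc7a5, Slc3a2, Slc1a5, Slc38a1, Slc38a2 and Slc7a1. From each pathway list, up to 4 called genes with the largest differences were named. The members and lists were chosen with earlier results of these data known.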

Additional observations from a re-analysis of the deposited data

How the results depend on the processing

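Each result was recomputed under 18 other settings. No called member changed sign in any of them, and 12 of 18 calls in beta-catenin against control, 8 of 11 in ICAT against control and 10 of 16 in beta-catenin against ICAT were kept in every setting. Members lower in beta-catenin than in control cells numbered 4, but 9 with array weights, 7 with arrays centred on their medians, 8 with only the 6 arrays of both groups, and 2 to 5 with 1 array left out (2 without control replicate 1 or beta-catenin replicate 3). Members higher in ICAT than in control cells numbered 5, but 2 with the mean of all probe sets of a gene, 3 with centred arrays, 3 with only 6 arrays, and 2 to 6 with 1 array left out (2 without control replicate 2 and 3 without control replicate 3). Members lower in beta-catenin than in ICAT cells numbered 5, but 3 with the mean of all probe sets, 3 with only 6 arrays, and 2 to 6 with 1 array left out (2 without beta-catenin replicate 3 or ICAT replicate 2). The cause was not tested.

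With the replicate number as a replicate block, 7 members were lower in beta-catenin than in control cells. Same-numbered arrays of different groups had correlations of their deviations from -0.13 to 0.41. Differently numbered arrays had correlations from -0.42 to 0.33. Same-numbered pairs had 0.12, 0.17 and 0.41 for replicate 3, from 0.04 to 0.16 for replicate 1 and from -0.13 to 0.06 for replicate 2. The ranges of same-numbered and differently numbered pairs overlap. Whether the replicate numbers pair the samples was not settled, and the labels do not say.

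Reversals touched differences that were not called. In beta-catenin against control, Slc1a3 had -0.0085 with centred arrays and -0.0295 to 0.103 with 1 array left out, and Slc7a6os had 0.27 with the mean of its probe sets (adjusted p = 0.0497) and -0.0821 to 0.0411 with 1 array left out. In beta-catenin against ICAT, Slc7a1 had -0.27 to 0.0259 with 1 array left out, and Slc7a5 had 0.0251 with array weights and -0.277 to 0.161 with 1 array left out. Dim members near log2 5, such as Slc7a2, are limited by signal over background.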
